A study of Mus musculus with 8 samples.

Results

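The cytochrome P450 genes are a superfamily of heme enzymes, and 76 of the 18097 rows of an Illumina MouseRef-8 v2.0 BeadChip table carried the symbol of one of them. The members were chosen by gene symbol alone, as the rows whose annotated name begins with Cyp and a family number, which leaves out the cyclophilins. No measured value enters this choice, although the family was picked with earlier results of these data known, so the genotype values below are a description of it. Each row stood for a different gene. The RNA came from the colonic mucosa of 4 male mice, each aged 157 days, on a background labelled mixed 129Sv/B6/D2. The 2 transgenic mice had the genotype Dnmt1LO/LO, TgVillacIGY, and the 2 control mice had the genotype Dnmt1LO/LO, so the Dnmt1LO/LO alleles were shared by all. The series title speaks of inhibition of Dnmt1, the methyltransferase that maintains DNA methylation, and the labels spell out neither allele nor what drives the transgene. Each mouse was measured on 2 arrays, which were averaged, so n = 2 mice per genotype throughout.

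Most P450 enzymes sit in the endoplasmic reticulum and insert an oxygen atom into a lipophilic substrate with electrons from P450 reductase, and a smaller set works in mitochondria. Enzymes of the first families in the numbering mostly oxidise drugs, plant compounds and other foreign molecules. Those of family 4 hydroxylate fatty acids and eicosanoids. Most of the remaining families make or clear sterols, bile acids, steroid hormones, vitamin D and retinoic acid. The liver is the main site of most foreign-compound P450s, while the gut epithelium holds a set of its own that meets dietary compounds first.

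Arrays had mean raw signals of 698 and 753 for transgenic mouse 1, of 998 and 1019 for transgenic mouse 2, and of 866 to 1080 for control mice, and 6646 to 7053 rows were detected on an array. Dnmt1 had raw signals of 179.8 and 248.4 (transgenic mouse 1) and 194.1 and 211.5 (transgenic mouse 2), against 932.1, 647.2, 749.9 and 579.6 on the control arrays. Its normalised levels were 7.42 and 6.74 in transgenic mice 1 and 2, against 9.39 and 9.16 in control mice 1 and 2 (log2), so the genotypes did not overlap. Of the 16 colonocyte markers listed, 13 were on the array and 11 were detected often enough to be tested, among them Vil1, Cdx1, Cdx2 and Cdh1 on all 8 arrays. Of the 10 hepatocyte markers, 8 were detected on no array, including Alb, Ahsg, Fga and Fgb, and Ttr and Cps1 were detected on all 8. The summed raw signal of those 10 rows was 2257 to 3658 in transgenic arrays and 4129 to 6151 in control arrays. Most of that sum was Ttr alone, at 1456.6 to 2874.7 in transgenic arrays and 3261.2 to 5298.4 in control arrays. Cps1 was at 154.6 to 181 in transgenic arrays and 156.7 to 188.1 in control arrays.

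A restricted part of the family was present in the colon. A row was called detected on an array when its detection p, which ranks the row's signal among negative control probes, was under 0.01. By that measure 16 of the 76 rows were detected on all 8 arrays, 5 on some arrays and 55 on none. Rows detected on at least 4 arrays were tested, which kept 20 of the 76 members and 6982 of the 18097 rows. The members that passed are thus not the family, and a row that is bright in 1 genotype alone could pass through that genotype.

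Among the 46 rows of families 1 to 3, mostly enzymes of foreign compounds, 12 were tested and 34 were detected on no array. The Cyp2d subfamily was the one with the most tested rows, 6 of 8: Cyp2d9, Cyp2d10, Cyp2d12, Cyp2d22, Cyp2d26 and Cyp2d34, while Cyp2d13 and Cyp2d40 were detected on no array. Of 11 Cyp2c rows, Cyp2c55 and Cyp2c65 were detected on all 8 arrays and the other 9 on none. Of these 9, Cyp2c29, Cyp2c37, Cyp2c38, Cyp2c39, Cyp2c40, Cyp2c50, Cyp2c68 and Cyp2c70 were near background, and Cyp2c67 is taken up in the closing section. Of 6 Cyp3a rows, Cyp3a13 was tested, and Cyp3a11, Cyp3a16, Cyp3a25, Cyp3a41b and Cyp3a44 were detected on no array. Cyp2f2, Cyp2s1 and Cyp2j9 were the remaining tested rows of these families. The aryl hydrocarbon receptor targets Cyp1a1, Cyp1a2 and Cyp1b1 were detected on no array, as were both Cyp2a rows (Cyp2a5 and Cyp2a12), all 5 Cyp2b rows (Cyp2b9, Cyp2b10, Cyp2b13, Cyp2b19 and Cyp2b23), Cyp2e1, Cyp2g1, Cyp2r1, Cyp2u1 and the Cyp2j rows Cyp2j5, Cyp2j6, Cyp2j11 and Cyp2j13.

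Of the 13 rows of family 4, the fatty acid hydroxylases, 5 were tested: Cyp4b1, Cyp4f13, Cyp4f14, Cyp4f16 and Cyp4v3. The 4 Cyp4a rows (Cyp4a12a, Cyp4a12b, Cyp4a14 and Cyp4a31), Cyp4f15, Cyp4f18, Cyp4f39 and Cyp4x1 were detected on no array. Of 8 rows for sterol and bile acid enzymes, Cyp27a1, the mitochondrial sterol side-chain hydroxylase, and Cyp51, the lanosterol demethylase of cholesterol synthesis, were detected on all 8 arrays. Cyp7a1, Cyp7b1, Cyp8b1, Cyp27b1, Cyp39a1 and Cyp46a1 were detected on none. No row of the 5 for steroid hormone synthesis was tested: Cyp11a1, Cyp11b1, Cyp17a1 and Cyp21a1 were detected on no array and Cyp11b2 on 2 transgenic arrays, with raw signals of 96.8 to 132.4 in transgenic mice and 114.9 to 122.3 in control mice. Cyp24a1, Cyp26a1 and Cyp26b1, of the vitamin D and retinoic acid families 24 and 26, were detected on no array, and the orphan enzyme Cyp20a1 on all 8.

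**Figure D1:**
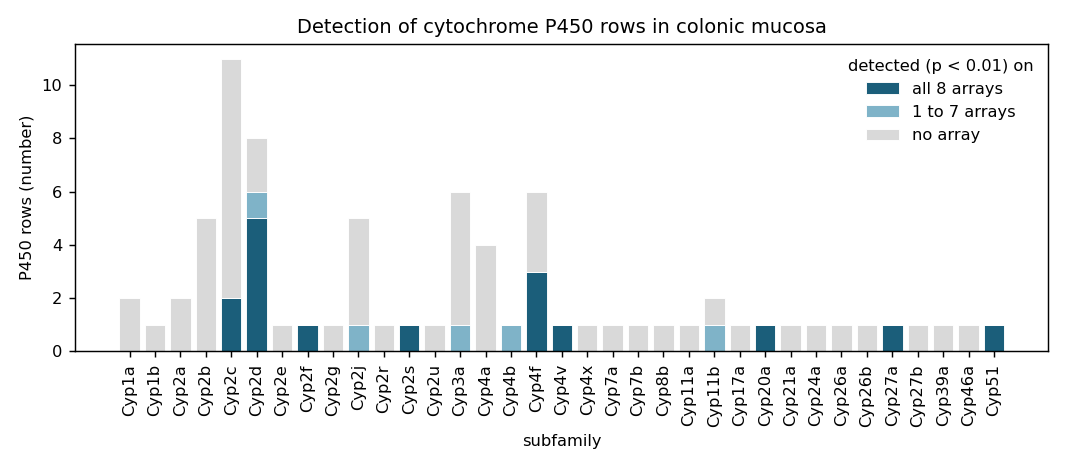
Bars give the number of P450 rows in each subfamily (x axis), split by the number of arrays on which the row was detected at a detection p under 0.01. Cyp2d and Cyp4f hold the most rows detected on all 8 arrays, 5 and 3, while the 5 Cyp2b and 4 Cyp4a rows were detected on none.

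Between genotypes the tested members were mostly lower in transgenic mice. Of 20, 18 had a negative change and 2 a positive one, where 51.5% of all rows tested were negative. Of the 20, 6 were Cyp2d rows from a single gene cluster, all with a negative change. The counts of members here and below are thus not counts of separate observations. The median change of the 20 was -1.12 (log2, transgenic minus control), ranging from -2.45 to 0.24, beside a median of -0.01 over all rows tested. No member passed the threshold: limma called 0 of the 20 lower and 0 higher at an adjusted p under 0.05, where over all rows it called 0% lower and 0.129% higher. At an unadjusted p under 0.05 limma had 9 of the 20 lower and 0 higher, against 3.95% and 4.41% of all rows. Both transgenic mice lay below both control mice in 14 of the 20, against 20.9% of all rows, and above both in 1, against 21.7%. A fit of the 8 arrays with the mouse as a random effect, which takes degrees of freedom from arrays, called 5 members lower, where it called 1.13% of all rows lower. With the array number as a block as well, 3 members were called lower, beside 0.716% of all rows.

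A pattern was read for each transgenic mouse by whether its mean lay at least 1.5-fold beyond the nearer control mouse. By that measure 6 members were lower in both transgenic mice (1.49% of all rows tested) and 0 were higher in both (1.93%). A further 8 were lower in transgenic mouse 1 alone (8.32%) and 0 were higher in it alone (6.73%). In transgenic mouse 2 alone, 2 were lower (1.76%) and 0 were higher (0.716%). Another 1 was lower in mouse 1 and higher in mouse 2 (0.215%), and 3 were beyond in neither (78.8%). The 6 were Cyp2d10, Cyp2d12, Cyp2d22, Cyp2f2, Cyp4b1 and Cyp4v3. Nearest to the limit inside was Cyp4v3, 0.61 below the nearer control mouse in mouse 1, and just outside were Cyp4f16, 0.58 below it in mouse 1, and Cyp2d34, 0.57 below it in mouse 2.

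The Cyp2d genes lie in 1 cluster on chromosome 15, and their enzymes oxidise many basic drugs; Cyp2d22 is regarded as the mouse gene closest to the human drug-metabolising CYP2D6. Cyp2d12 had raw signals of 200.6 and 210.4 (transgenic mouse 1) and 351.3 and 366.0 (transgenic mouse 2), against 732.3 and 663.8 in control mouse 1 and 1588.2 and 1160.5 in control mouse 2. All transgenic arrays were below all control arrays, although the control mice were themselves 1.03 apart and the transgenic mice 0.53 apart (log2). After normalisation its level was 7.63 ± 0.38 in transgenic mice and 9.75 ± 0.73 in control mice (log2, SD, n = 2). The change was thus -2.12 ± 0.41 (SE), which is 4.34-fold lower (limma, adjusted p = 0.244).

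Cyp2d22 had raw signals of 217.5 and 221.3 (transgenic mouse 1) and 890.9 and 877.0 (transgenic mouse 2), against 1273.3, 1248.6, 2167.1 and 1483.3 on the control arrays. The reduction was uneven, 7.49-fold in mouse 1 and 1.96-fold in mouse 2 against the control mean, with an overall change of -1.94 ± 0.67 (SE, limma, adjusted p = 0.534). Cyp2d10 had raw signals of 459.1 and 504.7 (transgenic mouse 1) and 726.3 and 726.2 (transgenic mouse 2), against 1046.9, 982.1, 2307.2 and 1913.4 on the control arrays. After normalisation it showed the opposite balance, with nearly equal levels in the transgenic mice (9.01 and 9.11) and control levels of 9.81 and 10.90 that lay 1.09 apart (log2). Its change was -1.29 ± 0.39 (SE, limma, adjusted p = 0.494).

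Of the other Cyp2d rows, Cyp2d34 and Cyp2d9 were lower in both transgenic mice than in either control mouse and passed the 1.5-fold limit in mouse 1 alone. The level of Cyp2d34 was 8.23 and 9.73 in transgenic mice 1 and 2, against 10.29 and 10.64 in control mice 1 and 2, and that of Cyp2d9, a steroid hydroxylase of male mouse liver, was 8.07 and 8.82, against 9.30 and 9.84. Their changes were -1.49 and -1.13 (limma, adjusted p = 0.547 and 0.494). Cyp2d26 was detected on neither array of transgenic mouse 1, where its own level was 2.00-fold below the control mean. Like Cyp2c67, it has detection values of the kind described in the closing section, so this call is uncertain. The level of Cyp2d26 in transgenic mouse 2, 7.21, lay between those of the control mice, 6.93 and 7.23. Its overall change was -0.43 (limma, adjusted p = 0.789). Over the 8 arrays the 15 pairs of Cyp2d rows correlated at 0.553 to 0.99, values that share the same mice and genotypes. The Cyp2d genes are close in sequence, and cross-hybridisation between their probes was not tested, so the levels of single Cyp2d genes are uncertain.

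Cyp2f2, which oxidises small aromatic compounds such as naphthalene in mouse airway cells, followed Cyp2d12 closely. Its raw signals were 189.3 and 211.8 (transgenic mouse 1) and 409.8 and 476.1 (transgenic mouse 2), against 832.6 and 732.2 in control mouse 1 and 1727.4 and 1275.5 in control mouse 2. All transgenic arrays lay below all control arrays. The change was -2.10 ± 0.48 (SE), or 4.30-fold lower (limma, adjusted p = 0.321). Cyp2d12 was the member with the largest change among those detected on all 8 arrays, and the named rows most like it over the 8 arrays by Pearson's r were Gstt1 (0.994), Gde1 (0.993), Btbd6 (0.992), Cyp2f2 (0.990) and Pllp (0.989). The changes of Gstt1, Gde1, Btbd6 and Pllp were -1.13, -1.11, -0.27 and -0.98.

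**Figure D2:**
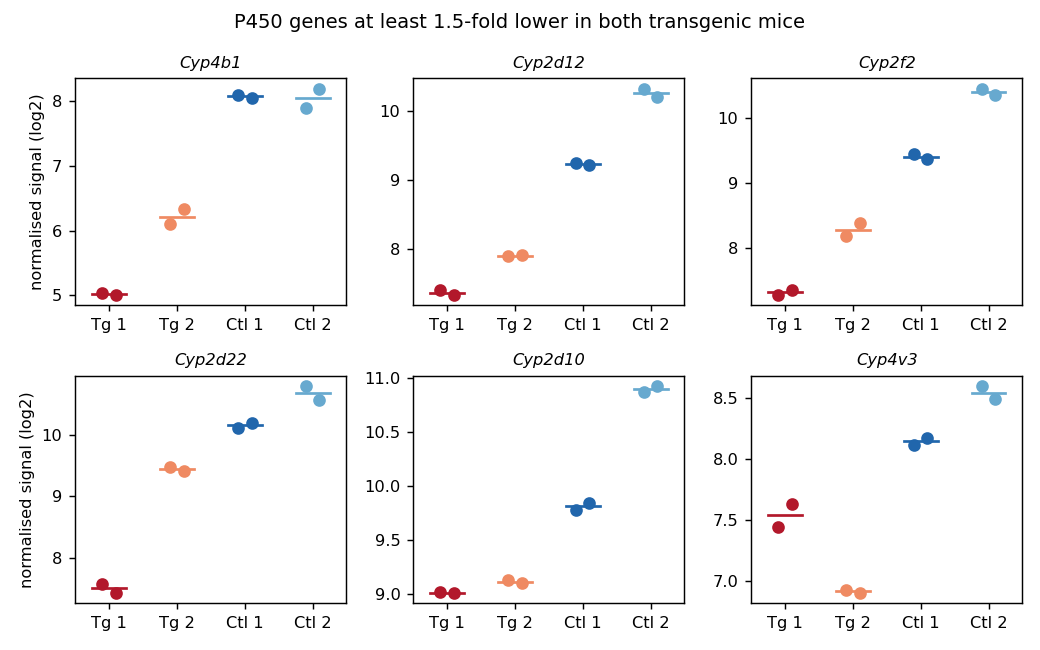
Normalised log2 signal (y axis, a separate scale in each panel) of the 6 P450 genes that were at least 1.5-fold lower in both transgenic mice. Points are single arrays, lines are mouse means, Tg is a transgenic and Ctl a control mouse. In each panel all 4 transgenic points lie below all 4 control points, and for Cyp2d10, Cyp2d12 and Cyp2f2 control mouse 2 lies well above control mouse 1.

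The family 4 gene Cyp4b1 encodes a fatty acid and foreign-compound hydroxylase known from lung. The raw signals were 84.4 and 84.2 (transgenic mouse 1) and 152.6 and 174.1 (transgenic mouse 2), against 366.9, 331.5, 345.3 and 332.8 on the control arrays. It was detected on all 4 control arrays and on 1 of 4 transgenic arrays, that one from mouse 2, and passed the detection filter mainly through the control arrays. The fitted change was -2.45 ± 0.42 (SE, limma, adjusted p = 0.2). It includes mouse 1, where neither array detected the gene and the level was at least 6.69-fold below the control mean. The change was -1.56 with no background correction and -0.27 with background from all rows, which is smaller than the -0.60 of Cyp4f14 under that setting. Cyp4v3, a fatty acid hydroxylase whose human counterpart CYP4V2 is mutated in a crystalline retinal dystrophy, had raw signals of 204.1 and 240.1 (transgenic mouse 1) and 215.6 and 223.0 (transgenic mouse 2), against 370.7, 353.4, 521.7 and 395.2 on the control arrays. Its normalised levels were 7.54 and 6.92 in transgenic mice 1 and 2, against 8.15 and 8.54 in control mice 1 and 2, a change of -1.12 ± 0.29 (SE, limma, adjusted p = 0.406).

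The Cyp4f enzymes inactivate leukotrienes and other eicosanoids, and Cyp4f14, the mouse leukotriene hydroxylase among them, lay below the control mice in one transgenic mouse and above them in the other. Its raw signals were 1256.0 and 1332.0 (transgenic mouse 1) and 9807.8 and 8936.2 (transgenic mouse 2), against 5658.8, 5357.2, 5557.5 and 5467.3 on the control arrays. It was thus 3.19-fold below the control mean in mouse 1 and 1.64-fold above it in mouse 2, while the control mice differed by 0.02 (log2). Averaged within each genotype this left a change of -0.48 ± 0.79 (SE, limma, adjusted p = 0.87). Cyp4f13 had levels of 11.29 and 11.68 in transgenic mice 1 and 2, against 11.93 and 12.05 in control mice 1 and 2, and a change of -0.51 (limma, adjusted p = 0.609). Cyp4f16 was at 8.08 and 8.71 in transgenic mice 1 and 2, against 8.66 and 8.80 in control mice 1 and 2, with a change of -0.33 (adjusted p = 0.748).

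The tested Cyp2c and Cyp3a genes passed the 1.5-fold limit in transgenic mouse 1 alone. Cyp2c55, an arachidonic and linoleic acid hydroxylase of the mouse gut, had raw signals of 1687.5 and 1685.0 (transgenic mouse 1) and 25277.1 and 23181.6 (transgenic mouse 2), against 24729.1, 25102.6, 25751.2 and 24069.1 on the control arrays. Transgenic mouse 2 lay 1.07-fold below the control mean, and mouse 1 lay 10.9-fold below it. The transgenic mice were 10.2-fold apart, and the change of -1.77 ± 1.09 (SE) had a limma adjusted p of 0.696.

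Cyp2c65, a second Cyp2c enzyme of the digestive tract encoded near Cyp2c55 on chromosome 19, had raw signals of 235.3 and 239.5 (transgenic mouse 1) and 3482.1 and 3092.9 (transgenic mouse 2), against 2891.9, 2827.7, 2033.9 and 1989.3 on the control arrays. Mouse 1 was 10.6-fold below the control mean and mouse 2 was 1.28-fold above it. Cyp3a13, the intestinal member of the drug-oxidising Cyp3a subfamily, had raw signals of 338.0 and 377.0 (transgenic mouse 1) and 2356.0 and 2619.3 (transgenic mouse 2), against 2553.3, 2419.8, 3142.4 and 2492.7 on the control arrays. Mouse 1 was 6.75-fold below the control mean. The changes over both mice were -1.53 ± 1.24 for Cyp2c65 and -1.49 ± 0.84 for Cyp3a13 (SE), with limma adjusted p = 0.754 and 0.677. Cyp2s1, an epithelial P450 found outside the liver, was 3.20-fold below the control mean in mouse 1 and 1.09-fold below it in mouse 2 (limma, adjusted p = 0.685). Without transgenic mouse 1 the change of Cyp2c65 was 0.35 and that of Cyp4f14 0.71, and limma called 1 of 20 members lower, Cyp4b1, beside 0.143% of all rows. Without transgenic mouse 2 it called 12 of 20 lower, beside 6.92% of all rows. In both fits only the control mice inform the spread.

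**Figure D3:**
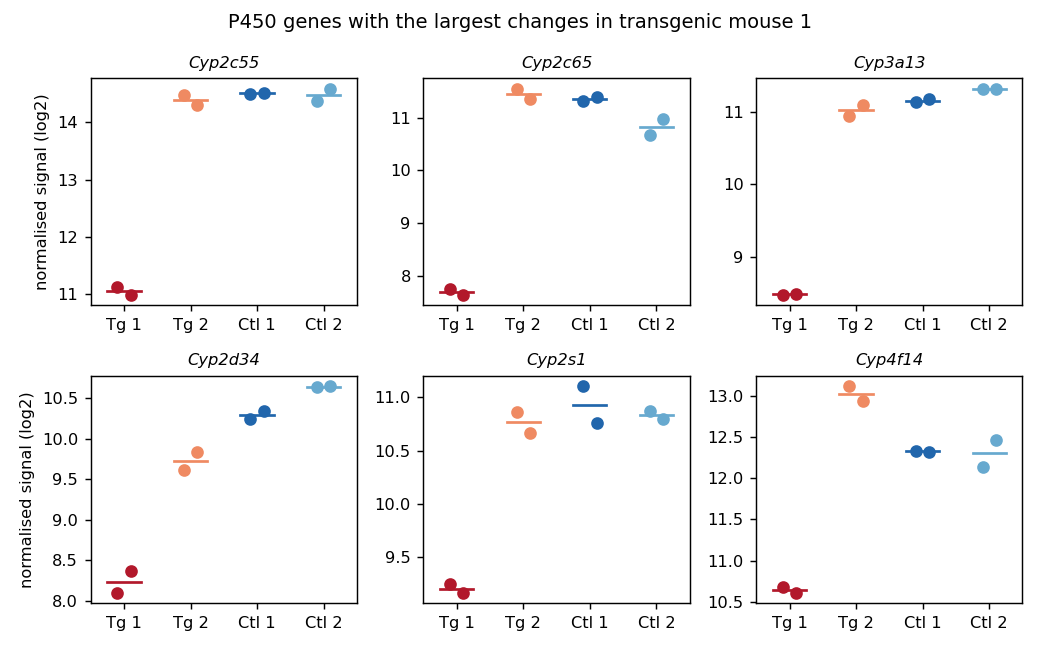
Normalised log2 signal (y axis, a separate scale in each panel) of the 6 P450 genes furthest below the control mean in transgenic mouse 1 among those not lower in both mice. Points are single arrays, lines are mouse means, Tg is a transgenic and Ctl a control mouse. Both arrays of transgenic mouse 1 lie below the other 6 arrays in each panel, and Cyp4f14 is higher in transgenic mouse 2 than in either control mouse.

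Cyp27a1 and Cyp2j9 were the members that passed the 1.5-fold limit in mouse 2 alone. Cyp27a1 had raw signals of 334.5 and 382.4 (transgenic mouse 1) and 365.1 and 393.9 (transgenic mouse 2), against 559.7, 508.8, 841.4 and 660.0 on the control arrays, a change of -0.85 ± 0.29 (SE, limma, adjusted p = 0.529). Cyp2j9, detected on 1 of 4 transgenic and 3 of 4 control arrays, was at 6.28 and 5.89 in transgenic mice 1 and 2, against 6.76 and 6.52 in control mice 1 and 2 (change -0.55, adjusted p = 0.598). The members with a positive change were Cyp20a1, at 0.24 ± 0.18, and Cyp51, at 0.17 ± 0.23 (SE), with limma adjusted p = 0.727 and 0.843. Cyp51 was at 10.29 and 10.53 in transgenic mice 1 and 2, against 10.46 and 10.02 in control mice 1 and 2, so its genotypes overlapped.

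**Figure D4:**
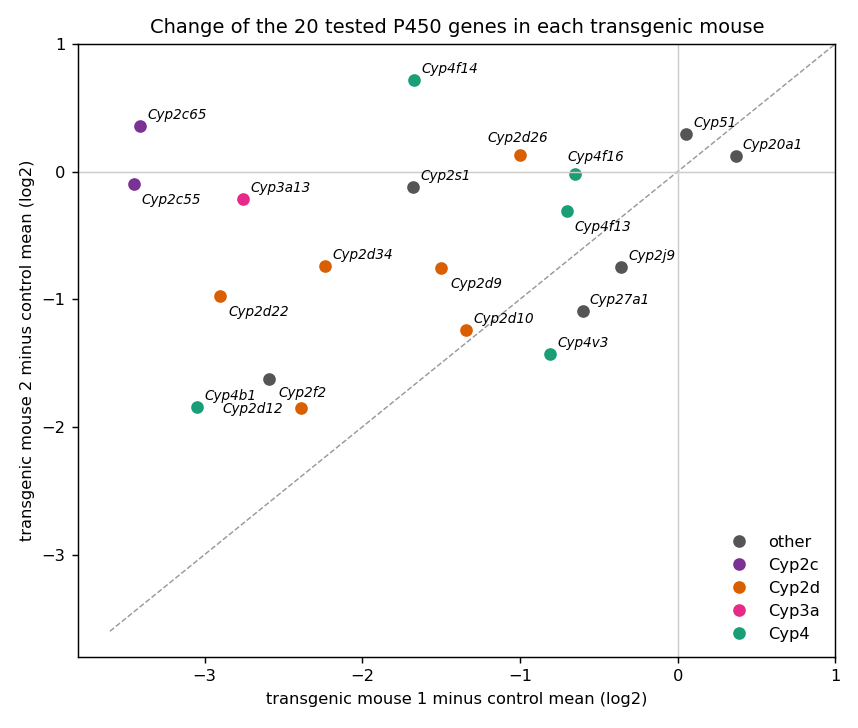
Difference from the mean of the control mice (log2) in transgenic mouse 1 (x axis) and transgenic mouse 2 (y axis) for each of the 20 tested P450 genes, coloured by subfamily; the dashed line marks equal differences. Cyp2c55, Cyp2c65 and Cyp3a13 sit far to the left near 0 on the y axis, whereas Cyp4b1, Cyp2d12 and Cyp2f2 are low on both axes.

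The transgenic mice differed from each other in this family. Over the 20 members the median difference from the control mean came to -1.59 (transgenic mouse 1) and -0.53 (transgenic mouse 2), beside 0.01 and -0.01 over all rows tested. In 9 of the 20 the transgenic mice were over 2-fold apart, against 8.82% of all rows. In 2 of the 20 the control mice were, against 136 of all 6982 rows tested. With 1 mouse on each side this difference has no test. Part of the colonocyte markers was also lower in transgenic mouse 1. Over the 11 tested the median difference was -0.87 (transgenic mouse 1) and 0.06 (transgenic mouse 2). Car4, Aqp8, Krt20, Slc20a1 and Krt19 were 2.31-fold to 8.29-fold below the control mean in mouse 1, and Ceacam1 and Guca2a were 1.82-fold and 1.41-fold below it. In the same mouse Cdx1, Cdx2 and Cdh1 were 0.02 to 0.16 above it and Vil1 0.25 below it (log2). In mouse 2, Slc20a1 and Aqp8 were also lower, 1.68-fold and 1.57-fold below the control mean. The other tested markers there ran from 1.11-fold below it (Cdx1) to 1.38-fold above it (Cdx2). The summed raw signal of the 13 on the array was 60587 to 66090 in transgenic mouse 1 and 141848 to 142652 in transgenic mouse 2, against 124390 to 141542 in control arrays. These sums are not normalised, and the arrays of transgenic mouse 1 were dimmer throughout. Guca2a was the largest part, with mean raw signals of 35857 and 62527 in transgenic mice 1 and 2, against 60402 and 60388 in control mice 1 and 2. Slc26a3 was near background, while Car2, which has no whole-step detection values and was not called detected, had mean raw signals of 401 and 1328 in transgenic mice 1 and 2, against 1408 and 2332 in control mice 1 and 2. Markers of tuft cells, chemosensory cells of the epithelium, were higher in both transgenic mice: of 6 on the array 4 were tested, Dclk1, Trpm5, Avil and Gng13, with changes of 1.66 to 2.19 (none passed limma's threshold). Their list's summed raw signal was 3307 to 3755 in transgenic arrays, against 1162 to 1421 in control arrays, and the defining factor Pou2f3 was detected on no array. Of 5 squamous markers 4 were detected on no array, while Krt14, detected on the control arrays alone, had a change of -1.70 (limma, adjusted p = 0.156). Of 8 small intestine markers 3 were tested. Among these, Sis was at 5.03 and 8.54 in transgenic mice 1 and 2, against 5.76 and 9.11 in control mice 1 and 2. In bulk mucosa, fewer cells of a type and less RNA per cell cannot be told apart. The part of all these markers in the P450 values was not tested.

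Of the 57 listed partners and regulators of P450 enzymes, 49 were on the array and 25 were tested, with 9 positive and 16 negative changes and a median of -0.14. None of the 25 passed the threshold in either direction (limma). The lowest p belonged to Ephx2, the soluble epoxide hydrolase that opens the epoxides P450s make from fatty acids. It was at 6.34 and 6.81 in transgenic mice 1 and 2, against 7.83 and 8.01 in control mice 1 and 2, a change of -1.35 ± 0.23 (SE, limma, adjusted p = 0.199). The pregnane X receptor Nr1i2, which induces Cyp3a and Cyp2c genes in response to foreign compounds and bile acids, was at 7.99 and 8.79 in transgenic mice 1 and 2, against 9.33 and 9.41 in control mice 1 and 2, with a change of -0.98 ± 0.30 (SE, adjusted p = 0.504). The change was -0.94 for the oxysterol receptor Nr1h3, -0.55 for the electron carrier Cyb5a and 0.56 for the microsomal epoxide hydrolase Ephx1 (limma, adjusted p = 0.483, 0.639 and 0.661). Urod, of heme synthesis, was at -0.28 (limma, adjusted p = 0.752). For Ephx2, Nr1i2, Nr1h3 and Cyb5a both transgenic mice lay below both control mice, as in 20.9% of all rows tested. For Ephx1 both lay above, as in 21.7%, and for Urod the genotypes overlapped.

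Promoter windows, from 250 bases before to 50 bases after the start, were taken from RefSeq (GRCm38.p6) and matched by symbol to 57 of the 76 genes, 52 of them with a single window. They are described by CpG dinucleotides, the sites that Dnmt1 methylates. The 16 tested members with a single window held 0 to 28 CpGs, with a median of 4, against a median of 7 over 32851 windows and 2 over the members not tested. The windows of Cyp2f2 and Cyp4b1, lower in both transgenic mice, Cyp2c55 and Cyp2c65, lower in mouse 1, and Cyp51, with a positive change, are printed 5′ to 3′ with each CpG in capitals.
Cyp2f2, chr7:27119705-27120004, plus strand: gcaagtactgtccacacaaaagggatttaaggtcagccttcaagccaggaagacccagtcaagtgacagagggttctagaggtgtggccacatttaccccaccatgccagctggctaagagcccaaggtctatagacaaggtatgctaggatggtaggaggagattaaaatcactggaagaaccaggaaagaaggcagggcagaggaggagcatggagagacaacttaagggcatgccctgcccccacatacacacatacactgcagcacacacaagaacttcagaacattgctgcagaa
Cyp4b1, chr4:115647672-115647971, minus strand: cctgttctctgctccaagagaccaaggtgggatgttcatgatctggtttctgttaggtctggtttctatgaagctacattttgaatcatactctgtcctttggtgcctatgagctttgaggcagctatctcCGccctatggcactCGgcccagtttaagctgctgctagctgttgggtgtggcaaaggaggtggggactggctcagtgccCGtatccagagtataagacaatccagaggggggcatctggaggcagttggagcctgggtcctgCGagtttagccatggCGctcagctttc
Cyp2c55, chr19:39006769-39007068, plus strand: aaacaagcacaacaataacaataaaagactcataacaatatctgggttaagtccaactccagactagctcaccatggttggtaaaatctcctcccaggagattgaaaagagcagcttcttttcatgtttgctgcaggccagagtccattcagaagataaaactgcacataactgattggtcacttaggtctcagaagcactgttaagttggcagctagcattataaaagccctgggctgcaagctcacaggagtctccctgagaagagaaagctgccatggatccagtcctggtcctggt
Cyp2c65, chr19:39060756-39061055, plus strand: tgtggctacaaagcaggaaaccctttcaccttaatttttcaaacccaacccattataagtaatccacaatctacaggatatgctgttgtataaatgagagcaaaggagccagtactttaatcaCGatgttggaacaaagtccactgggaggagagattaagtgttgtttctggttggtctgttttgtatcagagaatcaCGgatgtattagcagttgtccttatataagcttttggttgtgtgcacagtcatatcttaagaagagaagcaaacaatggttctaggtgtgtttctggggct
Cyp51, chr5:4104648-4104947, minus strand: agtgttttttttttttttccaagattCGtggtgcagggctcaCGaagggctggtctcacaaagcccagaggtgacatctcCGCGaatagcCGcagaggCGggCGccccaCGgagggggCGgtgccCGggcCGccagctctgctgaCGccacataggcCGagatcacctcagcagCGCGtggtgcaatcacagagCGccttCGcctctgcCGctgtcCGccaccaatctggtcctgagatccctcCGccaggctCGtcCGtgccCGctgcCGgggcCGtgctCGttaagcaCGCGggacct
Cyp2f2 and Cyp2c55 held 0 CpGs, Cyp2c65 held 2 and Cyp4b1 held 5, while Cyp51 held 28, more than 85.8% of all windows. Cyp51 and Cyp20a1, with 28 and 20 CpGs, were the members with positive changes and ranked 1 and 2 by CpG count among the 16. Cyp4v3, lower in both transgenic mice, and Cyp2s1, lower in mouse 1, held 17 each. Methylation was not measured, so these counts say nothing of its level in these mice.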

How the data were processed

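Total RNA was isolated with Trizol and labelled with the Illumina TotalPrep kit, per the labels' protocols. BeadStudio and Partek are named per the submitters' processing notes, without versions. The deposited intensity values are linear signals without normalization between arrays. The deposited detection value, a fraction, rises with the signal and was read as 1 minus the detection p. The authors' series matrix holds quantile-normalized log2 values, used as an alternative.

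Background mean and SD were inferred from the detection p over the 13920 rows whose detection values are whole multiples of 1/798. Normexp correction, an offset of 16, quantile normalization and log2 followed. Rows with a detection p under 0.01 on at least 4 of 8 arrays were tested. The arrays of each mouse were averaged and compared with limma 3.58.1 (R 4.3.3, statmod 1.5.0), 2 with 2 mice, two-sided, with Benjamini-Hochberg adjustment over 6982 rows and a threshold of 0.05. The offset understates changes of dim rows. The fit was tested on simulated data. "At least N-fold" sets the control mean against, per array, the lowest detected value or the row's own where that is higher. The number of mice, 2 per genotype, limits precision.

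Symbols came from the platform annotation; all 76 members were found by gene ID in RefSeq (GRCm38.p6). Members and lists were chosen with earlier results of these data known. Every tested member is named; raw signals are given for members lower in both mice and the largest changes in 1, and of the partner list the 6 lowest p are named.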

Additional observations from a re-analysis of the deposited data

Results flagged for a closer look

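Each of the 20 tested members was examined for an array standing apart from the other 3 of its genotype, 40 groups in all. The limit used flags about 1 in 20 groups of independent values by chance. These groups hold 2 arrays from each of 2 mice, so that rate does not apply to them. One was found: array 1 of transgenic mouse 1 for Cyp51, at 10.08 (log2), with the other transgenic arrays at 10.51 to 10.55.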

How the results depend on the processing

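Over 17 alternatives, 311 of 336 single-member values kept their direction and their side of the threshold, 21 came past it and 4 reversed, all 4 in fits without 1 mouse: Cyp51 without control mouse 2, and Cyp2c65, Cyp2d26 and Cyp4f14 without transgenic mouse 1. Over those fits the changes ran from -0.049 to 0.39 for Cyp51, -3.41 to 0.35 for Cyp2c65, -0.9999 to 0.13 for Cyp2d26 and -1.67 to 0.71 for Cyp4f14. Without 1 mouse at a time limma called 0 to 849 rows in either direction, 0 to 12 members lower and 0 to 6 partner genes, and the members' median ran from -1.59 to -0.53. Limma called 0 rows with background from all rows, 1 with detection on all 8 arrays, 2 with no detection filter, 188 with 8 arrays and the mouse as a random effect and 137 with the array number as a replicate block as well, against 9. The last 2 fits called 5 and 3 members lower (array numbers count technical arrays and pair no mice). With background from all rows the members' median was -0.59 and 1 member was lower in both transgenic mice (0.415% of all rows); with no filter the median was -0.040, over all 76 members. With a fold of 2, 3 were lower in both, as were 0.501% of all rows. The cause of these shifts was not tested beyond the changed rows or samples. Patterns by mouse could not be computed without a transgenic mouse. Signals near background limit Cyp4b1, Cyp2d26 and Cyp2j9.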

Other observations

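The row of Cyp2c67, a further Cyp2c gene, was detected on no array by its detection value (0.592 to 0.869), yet its raw signals were 124.6 and 141.2 (transgenic mouse 1) and 209.5 and 255.1 (transgenic mouse 2), against 435.4, 412.9, 780.2 and 678.6 on the control arrays. The genotypes did not overlap. It is 1 of 15 member rows whose detection values are not whole multiples of the step found in the other 61. Of rows with a mean raw signal over 300, none of the 4481 with whole-step values missed the detection filter, whereas 398 of the 1043 others did. Such bright rows were added to the test in an alternative chosen after the data were seen, and limma still called 0 members lower. Of 21 members, 7 were then at least 1.5-fold lower in both transgenic mice, as were 1.42% of all rows then tested. The added member, Cyp2c67, passed the signal limit only through its control arrays, so its pattern adds no support.

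Some regulators were not tested either. Nr1i3, Ahr and the aryl hydrocarbon receptor target Tiparp, which have whole-step values, were near background on every array. Pparg, Nqo1 and Nfe2l2 are among the rows without such values. Pparg, a fatty acid receptor, was at 9.51 and 10.60 in transgenic mice 1 and 2, against 10.69 and 10.37 in control mice 1 and 2. In the same order the quinone reductase Nqo1 was at 6.47 and 7.97, against 7.79 and 7.86, and Nfe2l2 at 6.83 and 7.72, against 7.61 and 7.69 (log2).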
